A study of Mus musculus with 6 samples.

Results

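The gene Trp53, which encodes the transcription factor p53, and 36 genes known as its targets were followed in activated mouse CD8+ T cells. These 37 genes were chosen by name and looked up in an expression table of 25638 genes. A row was found for 36 of them, and the long non-coding RNA gene Trp53cor1 was not analysed here. The table gives FPKM, the fragments of a gene scaled by its length and by the size of the library, so levels can be compared between genes, and between libraries as far as that scaling holds. Of the 36 genes, 35 had at least 1 FPKM in at least 2 libraries and were compared, and Gdf15 stayed under 1 FPKM in every library. The compared gene nearest to that limit was Epha2, whose highest value was 2.10 FPKM, while the highest value of Gdf15 was 0.153 FPKM.

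The cells were OT-I cells, CD8+ T cells whose transgenic receptor recognises a peptide of ovalbumin, and they are labelled WT. All received the ovalbumin peptide OVA257-264 for 48 h. They shared the culture with TAMos (CD11b+Ly6G-Ly6Chigh cells), with TANs (CD11b+Ly6G+Ly6Clow cells) or with vehicle alone, and 2 libraries were sequenced per group. Both myeloid populations had been sorted from spleens of mice bearing LLC tumours, so they were not taken from the tumour itself, and the T cells were purified again before RNA was isolated. No age of the animals is stated, nor whether both libraries of a group stem from separate cultures or animals. The p-values below therefore rest on the spread between libraries that may be technical replicates.

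In unstressed cells p53 is bound and marked for degradation by the ubiquitin ligase Mdm2, and stress signals free it mainly at the level of the protein, so the amount of its transcript need not change. Freed p53 switches on genes that stop the cell cycle, repair DNA, alter metabolism or start mitochondrial cell death, and among them its own inhibitors, which close a feedback loop. In T cells, rapid division after antigen recognition brings replication stress, and p53 is known to restrain such expansion.

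All 12 T cell markers examined had at least 48.2 FPKM in every library, as the label of CD8+ T cells requires. Among them Cd5 rose and Cd2 fell with TAMo against vehicle by more than 1 on the log2 scale (1.69 ± 0.025 and -1.90 ± 0.064). All 14 neutrophil markers and 13 of 18 monocyte and macrophage markers stayed under 1 FPKM in every library. Counted reads, read from the steps between low values, came to 41630000 to 45290000 in 5 libraries, and in TAMo replicate 1 to 21950000, or a multiple of these numbers. Transcripts of the mitochondrial genome held 1.20% and 1.32% of all FPKM in TAMo libraries, against 8.07% to 8.34% in the other 4. Such a difference can move the scale of other genes. All FPKM summed to 546324 and 548039 in TAMo libraries, 628881 and 628328 in TAN libraries and 630749 and 629901 in vehicle libraries.

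A p53 half-site is the 10-letter palindromic pattern that one pair of p53 molecules recognises. RefSeq promoter windows on GRCm38.p6, from 250 bases before to 50 after a transcription start, were found for 28 of the 37 genes. A perfect half-site lay in a window of 10 of the 28 genes, or 35.7%, against 9.55% of all 27025 genes and 7.71% of the 8358 tested genes in the promoter table. The 28 genes had 1.43 windows each on average, more than the 1.22 of all genes, and by window the shares were 27.5% of 40 and 8.36% of 32851. Because the pattern is its own reverse complement, both strands were covered at once. A match describes these letters and is no evidence of binding. The 10 genes were Ccng1, Mdm2, Abhd4, Ei24, Polk, Aen, Bax, Ppm1d, Sesn1 and Trp53. The 6 half-sites that lay before the start and outside annotated exons are shown with their surroundings on the strand of the gene. The half-site is in capitals. Their genes span a wide range of the responses described below, from 13.3-fold to 1.18-fold with TAMo. The stretches shown are chr11:40755427-40755506 (minus strand) for Ccng1 and chr10:117710900-117710979 (minus) for Mdm2. For Polk it is chr13:96519374-96519437 (minus), at a start inside the gene. For Bax it is chr7:45467055-45467134 (minus), which overlaps the gene Gm45808. For Ppm1d it is chr11:85311087-85311166 (plus). For Sesn1 it is chr10:41887231-41887310 (plus), at a start inside the gene.
Ccng1: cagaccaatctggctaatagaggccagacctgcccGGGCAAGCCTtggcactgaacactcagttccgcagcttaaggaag
Mdm2: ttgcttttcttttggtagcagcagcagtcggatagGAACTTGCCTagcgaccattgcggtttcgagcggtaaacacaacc
Polk: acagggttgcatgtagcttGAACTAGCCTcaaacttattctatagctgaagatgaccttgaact
Bax: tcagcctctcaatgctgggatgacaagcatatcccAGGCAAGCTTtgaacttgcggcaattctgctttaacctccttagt
Ppm1d: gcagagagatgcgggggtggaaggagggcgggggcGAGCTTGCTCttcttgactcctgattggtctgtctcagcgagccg
Sesn1: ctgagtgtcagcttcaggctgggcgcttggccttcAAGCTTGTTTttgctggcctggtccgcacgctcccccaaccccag

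The first comparison asked how these genes differed in OT-I cells cultured with TAMos from cells cultured with vehicle. With TAMo the p53 targets were much higher, while the transcript of p53 itself hardly differed. Of the 35 tested members, 33 rose and 2 fell with an adjusted p under 0.05 (limma over all 10727 tested genes), where 45.7% of all tested genes rose and 40.7% fell, 86.5% in either direction. The rise was of at least 1 on the scale log2(FPKM + 1) in 28 members, against 14.9% of all tested genes. The median log2 change of the tested members was 2.90, and that of all tested genes was 0.06. With the libraries rescaled to one sum without mitochondrial transcripts, 33 members were again higher and 2 lower, where 5302 of the 10727 genes were higher and 4007 lower. The members had been listed with earlier results of these data known, so these counts describe them and are no independent test. For 6 members, Ak1, Sulf2, Zfp385a, Zfp365, Eda2r and Epha2, 1 FPKM was reached in TAMo libraries only, so that they could enter the comparison only through a difference. Among the other 29, 27 rose, 22 of them by at least 1, and 2 fell, with a median log2 change of 2.72.

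Summed over the 36 genes, expression came to 3854 and 3771 FPKM in TAMo libraries, 618.7 and 619.9 FPKM in TAN libraries and 622 and 619 FPKM in vehicle libraries. The sums with TAN and vehicle lay close together and overlapped, and both TAMo libraries stood apart. As a share of all FPKM, the members took 0.705% and 0.688% with TAMo, against 0.0984% and 0.0987% with TAN and 0.0986% and 0.0983% with vehicle. These are levels in bulk RNA, in which more cells expressing a gene and more RNA per cell cannot be told apart.

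**Figure D1:**
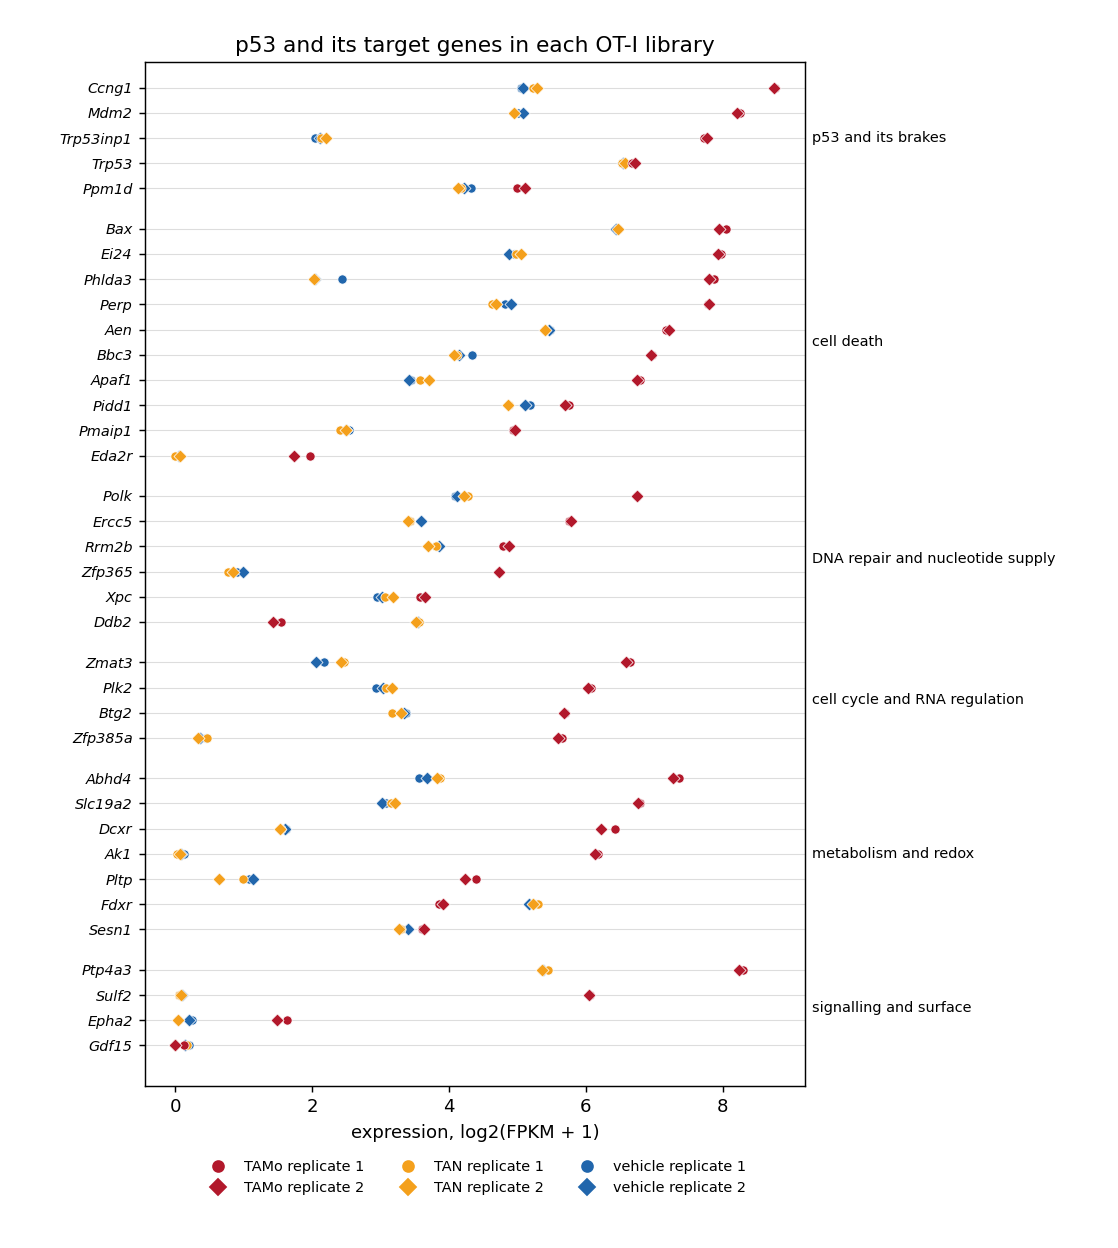
Expression of Trp53 and 35 p53 target genes in each library, as log2(FPKM + 1) on the horizontal axis, grouped by role, with circles for replicate 1 and diamonds for replicate 2. TAMo points lie right of all others for 33 genes, left of them for Ddb2 and Fdxr, and Gdf15 is near 0 throughout.

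Trp53 itself had 101 and 104 FPKM in TAMo libraries, 90.8 and 94.1 FPKM in TAN libraries and 91.0 and 91.95 FPKM in vehicle libraries. It was expressed at a high level in every group, and the TAMo values lay just above the rest. The log2 change with TAMo was 0.17 ± 0.032 (SE, limma adjusted p = 0.00169).

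The inhibitors of p53 among its targets rose. Mdm2, the ubiquitin ligase of p53 (GRCm38 chromosome 10, 117688875 to 117710758), had 305 and 294 FPKM with TAMo, 30.0 and 29.9 FPKM with TAN and 31.3 and 32.9 FPKM with vehicle. The groups did not overlap, and the TAMo mean was 9.33-fold that of vehicle (log2 change 3.18 ± 0.035, limma adjusted p = 6.89e-10). Ccng1, which encodes cyclin G1, a partner of the phosphatase PP2A that acts on Mdm2 (chromosome 11, 40748552 to 40755311), had 433 and 429 FPKM with TAMo, 36.6 and 38.1 FPKM with TAN and 32.1 and 33.0 FPKM with vehicle. It was the member with the highest level in TAMo libraries, 13.3-fold that of vehicle (log2 change 3.69 ± 0.032, adjusted p = 3.82e-10). Ppm1d, the gene of the phosphatase Wip1, which removes activating phosphates from p53 and its kinases, moved far less, with 30.8 and 33.4 FPKM in TAMo libraries, 17.0 and 16.4 FPKM in TAN libraries and 18.9 and 17.6 FPKM in vehicle libraries. Its rise was 1.76-fold (log2 change 0.78 ± 0.056, adjusted p = 5.83e-06). Trp53inp1, which encodes a stress protein that promotes p53 activity and autophagy (chromosome 4, 11156431 to 11174379), was at 211 and 218 FPKM with TAMo, 3.36 and 3.61 FPKM with TAN and 3.12 and 3.31 FPKM with vehicle. Its level with TAMo was 66.6-fold that of vehicle, the steepest rise of any member that was above 1 FPKM in all 6 libraries.

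All 10 members linked to cell death rose with TAMo, 9 of them by at least 1 on the log2 scale, where 45.7% of all tested genes rose and 14.9% rose by at least 1, and their median change was 2.58. Among these members, Eda2r reached 1 FPKM in TAMo libraries only and could enter the count only through a difference. Bax, the executor that opens the outer mitochondrial membrane (chromosome 7, 45461697 to 45466898), had the highest mean level among them with TAMo, at 265 and 247 FPKM, against 87.8 and 87.4 FPKM with TAN and 86.3 and 85.4 FPKM with vehicle. Its 2.98-fold rise came on a high starting level. The genes of the BH3-only proteins that trigger Bax rose more steeply from lower levels. Bbc3, the gene of PUMA, had 124 and 123 FPKM with TAMo, 16.3 and 15.8 FPKM with TAN and 19.3 and 16.7 FPKM with vehicle. Pmaip1, the gene of NOXA, had 29.6 and 30.2 FPKM with TAMo, 4.28 and 4.61 FPKM with TAN and 4.79 and 4.66 FPKM with vehicle. Thus the 2 genes rose 6.89-fold and 6.32-fold (adjusted p = 1.26e-08 and 1.42e-08), and the level of Bbc3 with TAMo was above that of Pmaip1.

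Apaf1, the scaffold of the apoptosome that activates caspase-9 (chromosome 10, 90989311 to 91082770), was at 109 and 106 FPKM in TAMo libraries, 10.9 and 12.0 FPKM in TAN libraries and 9.89 and 9.68 FPKM in vehicle libraries, an 11.02-fold rise over vehicle. Phlda3, a small protein that competes with the kinase Akt for membrane lipids, had 233 and 222 FPKM with TAMo, 3.07 and 3.08 FPKM with TAN and 4.42 and 3.11 FPKM with vehicle. The vehicle replicates of Phlda3 differed from each other more than those of most members, but both lay far below TAMo (log2 change 5.60 ± 0.12, adjusted p = 7.44e-09). Perp, a tetraspan membrane protein of p53-dependent death, had 219.6 and 221 FPKM with TAMo, 23.8 and 24.7 FPKM with TAN and 27.3 and 29.0 FPKM with vehicle. Ei24, an endoplasmic reticulum protein found as etoposide-induced, had 249.996 and 243 FPKM with TAMo, 30.6 and 32.2 FPKM with TAN and 29.9 and 28.4 FPKM with vehicle. For the nuclease gene Aen the values were 143 and 147 FPKM with TAMo, 41.3 and 41.3 FPKM with TAN and 43.3 and 43.0 FPKM with vehicle. These 3 rose 7.84-fold, 8.46-fold and 3.36-fold, and none of their groups overlapped TAMo. Pidd1, which builds the platform that activates caspase-2, rose least of the death genes, to 52.9 and 51.0 FPKM with TAMo, against 28.4 and 28.0 FPKM with TAN and 35.2 and 33.5 FPKM with vehicle (log2 change over vehicle 0.59 ± 0.039, adjusted p = 3.74e-06). Eda2r, the receptor for ectodysplasin A2, stayed low, with 2.91 and 2.34 FPKM in TAMo libraries and at most 0.0433 FPKM in the other 4.

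Of the 6 genes of DNA repair and nucleotide supply, 5 rose and 1 fell with TAMo, beside 45.7% and 40.7% of all tested genes. Among the 5, Zfp365 reached 1 FPKM in TAMo libraries only and could enter the count only through a difference. Polk, a polymerase that copies past damaged bases (chromosome 13, 96480690 to 96542579), had 106 and 106 FPKM with TAMo, 18.3 and 17.6 FPKM with TAN and 16.0 and 16.4 FPKM with vehicle. Ercc5, the endonuclease that cuts on one side of a lesion in nucleotide excision repair, had 53.1 and 53.9 FPKM with TAMo, 9.75 and 9.57 FPKM with TAN and 9.82 and 11.1 FPKM with vehicle. These rises were 6.55-fold and 5.12-fold. Damage sensors of the same repair pathway rose less or fell. Xpc had 10.96 and 11.6 FPKM with TAMo, 7.38 and 8.08 FPKM with TAN and 6.72 and 7.12 FPKM with vehicle, a 1.63-fold rise over vehicle (adjusted p = 5.41e-05). Ddb2, best known as a p53 target in human cells (chromosome 2, 91211572 to 91236982), fell to 1.93 and 1.70 FPKM with TAMo, against 10.8 and 10.4 FPKM with TAN and 10.4 and 10.6 FPKM with vehicle. It was 5.81-fold lower than with vehicle (log2 change -2.04 ± 0.067, adjusted p = 6.9e-08). Exons of Ddb2 share 652 bases with the oppositely oriented gene Acp2, which averaged 9.596 FPKM with TAMo, 5.66 FPKM with TAN and 5.80 FPKM with vehicle, and whether strand was used in counting is not known. Rrm2b, the p53-inducible subunit of ribonucleotide reductase, had 26.7 and 28.4 FPKM with TAMo, 12.97 and 11.9 FPKM with TAN and 12.96 and 13.5 FPKM with vehicle, a 2.08-fold rise over vehicle. Zfp365, a zinc finger gene of genome stability, was at 25.6 FPKM in both TAMo libraries, at 0.711 and 0.797 FPKM with TAN and at 0.860 and 0.991 FPKM with vehicle.

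Among regulators of the cell cycle and of RNA, all 4 members rose with TAMo, beside the 45.7% of all tested genes. Of these, Zfp385a reached 1 FPKM in TAMo libraries only and could enter the count only through a difference. Zmat3, an RNA-binding protein that controls splicing downstream of p53 (chromosome 3, 32334792 to 32366014), had 98.7 and 94.9 FPKM with TAMo, 4.52 and 4.37 FPKM with TAN and 3.49 and 3.16 FPKM with vehicle. Zfp385a, also called HZF, a p53 cofactor that favours cell cycle arrest, had 49.2 and 47.1 FPKM with TAMo, 0.380 and 0.254 FPKM with TAN and 0.361 and 0.280 FPKM with vehicle. It was all but absent outside TAMo libraries, where Zmat3 had a low but steady level. Plk2, a stress-induced relative of the mitotic kinase Plk1, had 66.5 and 64.3 FPKM with TAMo, 7.47 and 7.95 FPKM with TAN and 6.65 and 7.22 FPKM with vehicle. Btg2, an antiproliferative adaptor of mRNA deadenylation, had 50.8 and 50.4 FPKM with TAMo, 7.96 and 8.82 FPKM with TAN and 9.30 and 9.12 FPKM with vehicle. The fold over vehicle was 29.1 for Zmat3, 9.43 for Plk2 and 5.50 for Btg2.

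Of the 7 genes of metabolism and redox balance, 6 rose and 1 fell with TAMo, beside 45.7% and 40.7% of all tested genes. Among those that rose, Ak1 reached 1 FPKM in TAMo libraries only and could enter the count only through a difference. Ak1, the adenylate kinase that interconverts adenine nucleotides (chromosome 2, 32621758 to 32635058), had 71.3 and 69.1 FPKM with TAMo, 0.0160 and 0.0481 FPKM with TAN and 0.0962 and 0.0635 FPKM with vehicle. Its log2 change of 6.04 ± 0.069 ranked 2 among all tested genes (adjusted p = 7.05e-10), and the added 1 makes it smaller than the ratio of the levels. Dcxr, a reductase of sugars and dicarbonyls, had 84.7 and 73.7 FPKM with TAMo, 1.91 and 1.89 FPKM with TAN and 2.07 and 2.03 FPKM with vehicle. Abhd4, a lipase of N-acyl phospholipids, had 164 and 154 FPKM with TAMo, 13.6 and 13.1 FPKM with TAN and 10.8 and 11.8 FPKM with vehicle. These rose 38.6-fold and 14.1-fold over vehicle. The thiamine transporter gene Slc19a2 had 109 and 108 FPKM with TAMo, 7.92 and 8.24 FPKM with TAN and 7.44 and 7.10 FPKM with vehicle, and its rise was 14.9-fold. Sesn1, a sestrin that restrains the growth kinase mTORC1, hardly moved, with 11.2 and 11.4 FPKM in TAMo libraries, 8.79 and 8.596 FPKM in TAN libraries and 9.52 and 9.602 FPKM in vehicle libraries (log2 change over vehicle 0.22 ± 0.051, adjusted p = 0.00469). Fdxr, the mitochondrial ferredoxin reductase, fell to 13.5 and 14.1 FPKM with TAMo, against 38.3 and 36.3 FPKM with TAN and 37.5 and 35.1 FPKM with vehicle (log2 change -1.33 ± 0.049, adjusted p = 1.36e-07).

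Pltp, a phospholipid transfer protein that macrophages also make, had 20.1 and 17.9 FPKM with TAMo, 0.995 and 0.552 FPKM with TAN and 1.10 and 1.20 FPKM with vehicle. Beside this rise, the 18 monocyte and macrophage markers summed to 20.1 and 24.05 FPKM in TAMo libraries, 42.9 and 43.5 FPKM in TAN libraries and 55.3 and 55.1 FPKM in vehicle libraries. Of these markers, C1qa, C1qb and C1qc were listed at 0 in every library, and Csf1r did not exceed 0.0361 FPKM. The 4 markers that could be tested were divided, since Ly6c2 and Apoe fell with TAMo (log2 changes -2.62 ± 0.076 and -1.38 ± 0.051) while Cd14 and Cd68 rose (1.90 ± 0.091 and 0.75 ± 0.25, limma adjusted p = 5.4e-07 and 0.0249). Ly6c2 and Apoe made up most of the sum in vehicle libraries, with 29.3 and 30.3 FPKM for Ly6c2 and 21.7 and 20.7 FPKM for Apoe. With TAMo, Ly6c2 had 4.39 and 3.64 FPKM and Apoe 7.35 and 7.75 FPKM, so the lower sum follows these genes. The sum was highest in vehicle libraries, to which no myeloid cells were added, and so is no measure of such cells. Cd14 had 2.84 and 3.17 FPKM in TAMo libraries and at most 0.0852 FPKM in the other 4. Cd68 had 3.63 and 7.05 FPKM with TAMo, 2.65 and 1.82 FPKM with TAN and 2.95 and 2.35 FPKM with vehicle. Zbtb46, the single dendritic cell marker of 6 that was tested, had 5.90 and 5.09 FPKM with TAMo, 1.07 and 1.45 FPKM with TAN and 1.93 and 1.51 FPKM with vehicle. The part of such cells in the members' values was not tested. Exons of Pltp share 495 bases with Ctsa on the opposite strand, which averaged 42.7 FPKM with TAMo, 32.8 FPKM with TAN and 31.3 FPKM with vehicle, and the part of these reads in the value of Pltp was not tested. Exons of Bax share 192 bases with Gm45808 on the same strand, which averaged 0 FPKM in every group. Those of Ei24, Rrm2b and Sulf2 share bases with genes on the opposite strand, and the part of these overlaps was not tested either.

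Signalling and surface genes completed the list. Ptp4a3, the phosphatase PRL-3, had 312 and 300.5 FPKM with TAMo, 42.6 and 40.03 FPKM with TAN and 39.9 and 40.4 FPKM with vehicle, a 7.63-fold rise. Sulf2, a secreted sulphatase that trims heparan sulphate and so alters growth factor binding (chromosome 2, 166073089 to 166155663), had 65.7 and 65.0 FPKM with TAMo, 0.0411 and 0.0576 FPKM with TAN and 0.0329 and 0.0652 FPKM with vehicle. Both TAMo libraries stood far above the other 4, which were near 0 (log2 change 5.98 ± 0.068, adjusted p = 7.05e-10). Sulf2 and Epha2 reached 1 FPKM in TAMo libraries only, so they could enter the comparison only through a difference. The ephrin receptor gene Epha2 remained low, at 2.10 and 1.79 FPKM with TAMo, 0.0228 FPKM in both TAN libraries and 0.188 and 0.147 FPKM with vehicle. Gdf15, a secreted stress cytokine of the TGF-beta family that p53 induces in many tissues, had 0.0936 and 0 FPKM in TAMo libraries, 0.122 and 0 FPKM in TAN libraries and 0.153 and 0.106 FPKM in vehicle libraries. Gdf15 was under 1 FPKM in every library and was not compared.

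**Figure D2:**
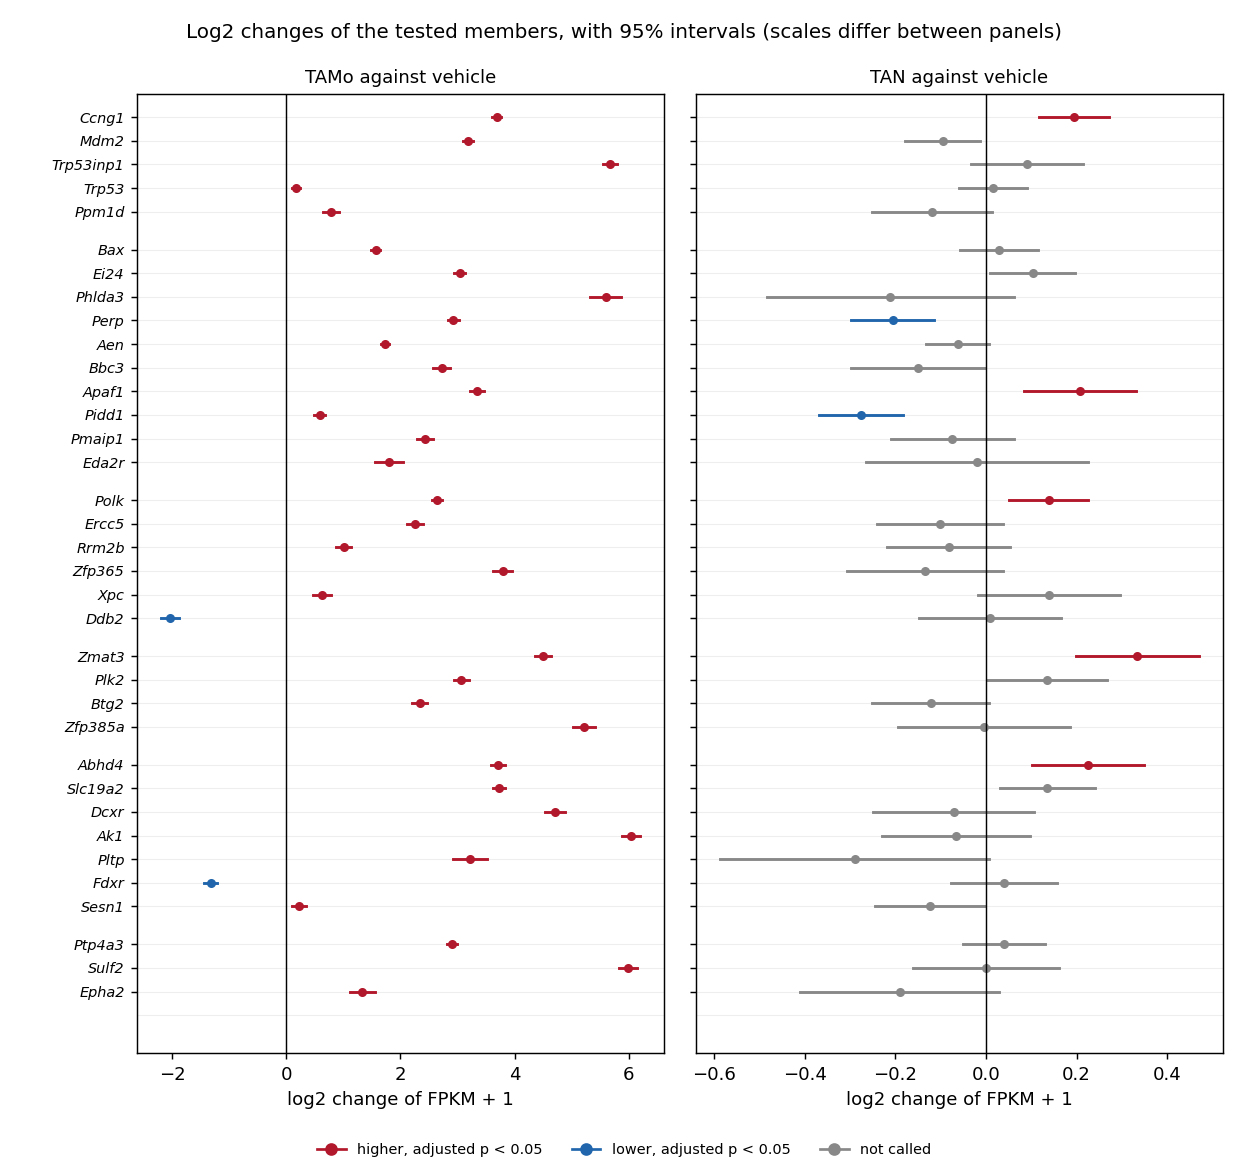
Log2 change of FPKM + 1 for the 35 tested members, with TAMo against vehicle on the left and TAN against vehicle on the right, as points with 95% limma intervals, coloured by call. With TAMo 33 members lie above 0 and 2 below, up to 6.04, whereas with TAN the changes lie between -0.29 and 0.33 and 28 were not called.

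Set beside all genes, the members covered a wide span. Ak1, Sulf2, Trp53inp1, Phlda3 and Zfp385a held ranks 2 to 6 of the 10727 log2 changes with TAMo, ordered from the highest. Of these, Ak1, Sulf2 and Zfp385a reached 1 FPKM in TAMo libraries only, so they could be ranked only through a difference. In contrast, Sesn1 lay at percentile 57.0 and Trp53 at percentile 54.5, near the middle. Pidd1, Xpc, Ppm1d and Rrm2b lay between percentiles 72.04 and 85.2. At the other end, Fdxr was at percentile 9.29 and Ddb2 at percentile 4.33.

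**Figure D3:**
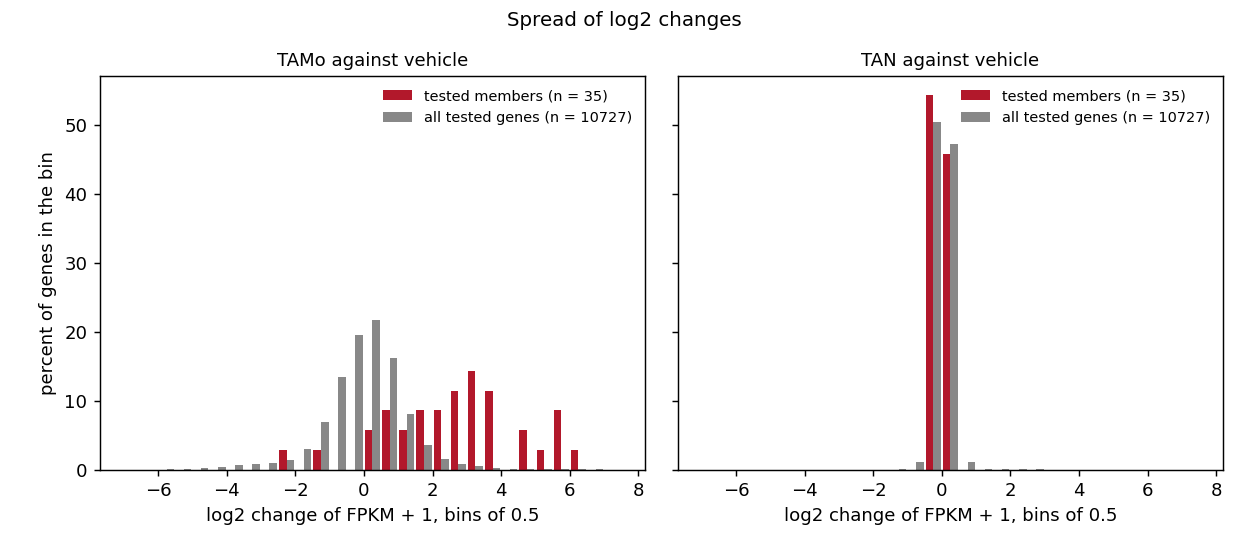
Percent of genes per bin of 0.5 in log2 change, for the 35 tested members and for all 10727 tested genes, with TAMo against vehicle on the left and TAN against vehicle on the right. With TAMo most members lie above 1.5 while 4407 of all tested genes lie within 0.5 of 0, and with TAN all 35 members and 10462 of the genes do.

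The second comparison set TAN against vehicle. Here the members moved little: 5 of 35 rose and 2 fell, where 9.37% of all tested genes rose and 11% fell, 20.3% in either direction, and 28 did not pass. None changed by 1 on the log2 scale, as 0.168% of all tested genes did upward and 0.0559% downward, and the median was -0.02, against -0.005 for all tested genes. Zmat3 rose 1.34-fold (log2 change 0.33 ± 0.058, limma adjusted p = 0.00944), and Ccng1 rose 1.15-fold (0.19 ± 0.032, adjusted p = 0.00843). Abhd4, Apaf1 and Polk rose 1.18-fold, 1.17-fold and 1.11-fold (adjusted p = 0.0259, 0.0331 and 0.0411). Pidd1 was 0.821-fold (log2 change -0.28 ± 0.039, adjusted p = 0.00484) and Perp 0.862-fold (-0.21 ± 0.039, adjusted p = 0.0126) the vehicle level. Of these calls, only that of Pidd1 held in all 17 alternative analyses, with an adjusted p of up to 0.0441. The number of members that rose was 2 when TAN replicate 1 was left out, 1 for TAN replicate 2, 1 for vehicle replicate 1 and 2 for vehicle replicate 2, and the number that fell was 1 without TAN replicate 1. Mdm2, Bbc3, Bax and Trp53 were not called, with log2 changes of -0.096 ± 0.035, -0.15 ± 0.063, 0.029 ± 0.037 and 0.015 ± 0.032. Without vehicle replicate 2, Bbc3 and Phlda3 were called lower with TAN, with log2 changes of -0.25 and -0.41 (limma adjusted p = 0.0331 and 0.0180). Epha2 was called lower with TAN, by -1.12, where the added constant was 0.1 in place of 1 (limma adjusted p = 0.0228). Its levels here were far under 1 FPKM, at 0.0228 FPKM with TAN and 0.188 and 0.147 FPKM with vehicle. At such levels a smaller constant enlarges a log2 change.

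In the direct comparison of TAMo with TAN, 33 members were higher and 2 lower with TAMo, where 46% of all tested genes were higher and 40.6% lower, 86.6% in either direction, and the median log2 change was 2.87. It shares the TAMo libraries with the first comparison and the TAN libraries with the second. The 6 members that reached 1 FPKM in TAMo libraries only could again enter only through a difference. Among the other 29, 27 were higher and 2 lower with TAMo, with a median log2 change of 2.86. Trp53inp1 was 61.4-fold and Phlda3 74.0-fold higher with TAMo than with TAN, and Zmat3, which had risen with TAN, was 21.8-fold higher. Pidd1 was 1.85-fold higher with TAMo than with TAN, and Ddb2 and Fdxr were lower by 2.05 and 1.37 on the log2 scale. With TAMo, no call of any member changed in either comparison under the alternatives that tested it, and the highest adjusted p was 0.0272 against vehicle, for Sesn1, and 0.0249 against TAN, for Trp53.

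Further p53 targets outside the list were also examined. Of 23 such genes 19 were tested, and with TAMo 15 rose, 10 of them by at least 1, and 2 fell, where 45.7% of all tested genes rose, 14.9% by at least 1, and 40.7% fell, with a median log2 change of 1.22. Cdkn1a, which encodes the cell cycle inhibitor of cyclin-dependent kinases that is the best known p53 target, had 1820.1 and 1803 FPKM with TAMo, 73.9 and 71.2 FPKM with TAN and 53.6 and 52.8 FPKM with vehicle. It exceeded every member in level with TAMo, and it rose with TAN as well (log2 change 0.44 ± 0.028, adjusted p = 0.000282). The death receptor genes Fas and Tnfrsf10b had log2 changes with TAMo of 3.91 ± 0.082 and 2.90 ± 0.059. Those of the mTORC1 inhibitors Ddit4 and Sesn2 were 2.60 ± 0.028 and 2.36 ± 0.060, and that of the diacylglycerol kinase gene Dgka was 2.28 ± 0.035. Thus Sesn2 rose where the related Sesn1 hardly moved. Of those that fell, Trp53i13, named after its values were seen, had a log2 change of -1.63 ± 0.055. With TAN 6 of the 19 rose and 4 fell, beside 9.37% and 11% of all tested genes.

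Genes that control p53 were counted as well. Of 11 activators 10 were tested, and with TAMo 5 rose and 3 fell, shares near the 45.7% and 40.7% of all tested genes. Ep300, an acetyltransferase of p53, rose by 1.32 ± 0.034 and Trp53bp1, a damage-response adaptor, by 1.02 ± 0.052 on the log2 scale. The checkpoint kinase gene Chek1, which is expressed in dividing cells, fell to 2.29 and 1.43 FPKM with TAMo, against 26.2 and 29.3 FPKM with TAN and 30.7 and 28.9 FPKM with vehicle. All 6 inhibitors outside the list were tested, and 3 rose with TAMo, each by at least 1, while 1 fell, beside 45.7%, 14.9% and 40.7% of all tested genes. Mdm4, the partner of Mdm2, had 121 and 124 FPKM with TAMo, 69.1 and 67.5 FPKM with TAN and 57.1 and 57.9 FPKM with vehicle. Ppp1r13l, the inhibitor iASPP, and the ubiquitin ligase gene Rchy1 had log2 changes of 2.26 ± 0.074 and 1.45 ± 0.074. The relatives of p53 were near 0, since Trp73 did not exceed 0.118 FPKM and Trp63 was at 0 in 5 of 6 libraries.

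**Figure D4:**
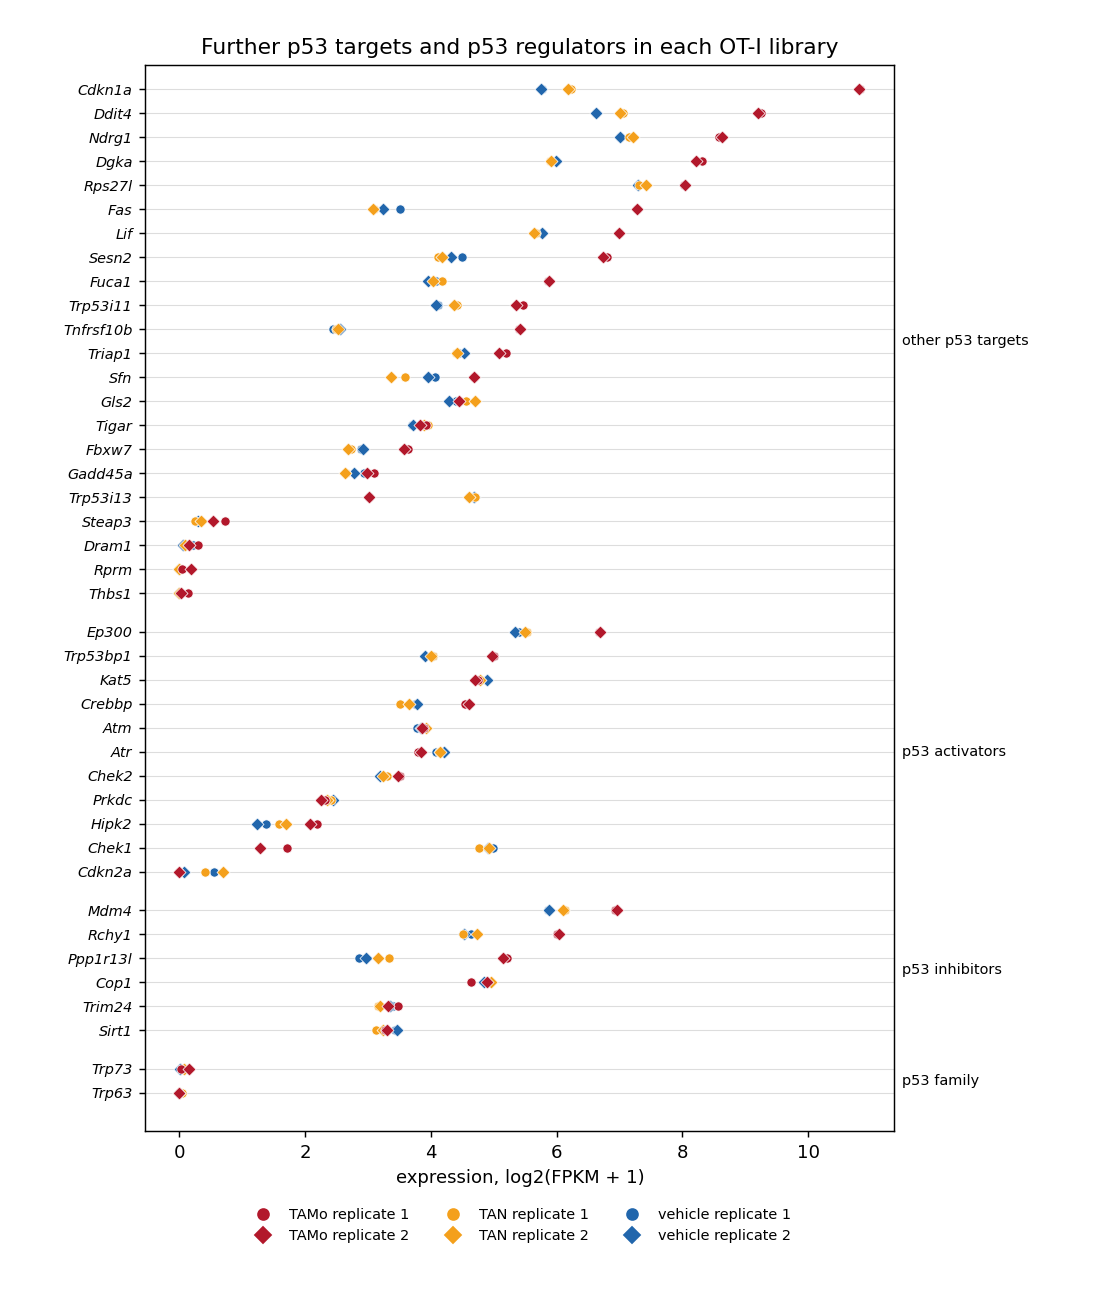
Expression, as log2(FPKM + 1), of further p53 targets, 11 activators, 6 inhibitors and 2 relatives of p53 in each library, with circles for replicate 1 and diamonds for replicate 2. Cdkn1a has the highest level of these genes with TAMo, Chek1 is lower with TAMo than with TAN or vehicle, and Trp63 and Trp73 lie near 0 in all groups.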

How the data were processed

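RNA of OT-I cells was sequenced in 6 libraries, 2 per group, grouped by their labels. The deposited values are FPKM per gene, computed by the authors. The tools listed per the submitters' processing notes are HISAT2 2.0.5, featureCounts 1.5.0-p3 and CASAVA, and the build is mm10. The roles of these tools are not stated there, nor are the gene lengths, the strand setting or the annotation.

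Genes that reached 1 FPKM in 2 or more of the 6 libraries were tested on log2(FPKM + 1) with limma 3.58.1 (R 4.3.3), in one model over all libraries with a mean-variance trend, 3 residual and 4.07 prior degrees of freedom, two-sided, with Benjamini-Hochberg adjustment over all 10727 genes and a threshold of 0.05. The procedure was tested on simulated data in which far fewer genes changed than were called here with TAMo. That test therefore does not cover the TAMo comparisons. Values after ± are standard errors of a log2 change, and folds are ratios of mean FPKM. Replicates correlated across genes at 0.996 to 0.998. Depth was read from genes with 1 transcript in GENCODE mouse release 21 (GRCm38), in which at least 98.0% of values up to 40 reads were whole within 0.1. It limits genes under 1 FPKM. Coordinates are from the same release, and promoters from RefSeq. The members and lists were chosen with earlier results of these data known. Every member is named, and of other genes those called with a log2 change of at least 1, at most 6 a list, besides Cdkn1a and the p53 family, Trp53i13 and the markers C1qa, C1qb, C1qc, Csf1r and Cd68, which were named after their values were seen. One gene of a list is not reported here by name or in the plots. Alternatives are given in the closing section.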

Additional observations from a re-analysis of the deposited data

How the results depend on the processing

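For TAMo against vehicle and TAMo against TAN, none of 593 member results in each comparison changed direction or call over 17 alternatives, which include leaving out each library. The median log2 change of the tested members with TAMo against vehicle was 2.97 with a pseudocount of 0.1, 2.81 with no filter on low values, 2.998 rescaled without mitochondrial transcripts and 2.96 with quantile normalisation. Against TAN it was 3.07 and 2.91 with pseudocounts of 0.1 and 0.5, 2.93 with a mean of at least 5 FPKM, 2.96 rescaled without mitochondrial transcripts and 2.84 centred on the median. All of these medians include members that reached 1 FPKM in TAMo libraries only. Rescaling without mitochondrial transcripts put the median of all tested genes at 0.15 in both, against 0.06 and 0.07 as reported, while the log2 change of Trp53 with TAMo against vehicle ranged from 0.14 to 0.26 over all alternatives.

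For TAN against vehicle, 551 of 593 member results stayed the same, 27 lost and 3 gained a call (Epha2, Phlda3 and Bbc3) and 12 changed sign. The median was -0.064 and -0.040 with pseudocounts of 0.1 and 0.5 and -0.041 with no filter. The members that rose were 2 with no filter, 2 with no variance trend, 3 with only the 2 groups and 1 to 4 with a library left out, and those that fell were then 1 to 3. All genes that rose numbered 644 with no filter and 325 to 1188 with a library left out, and those that fell 687 and 367 to 1387. Zfp385a was at 0.0017 centred on the median and 0.015 with quantile normalisation. With a library left out, Zfp385a ranged from -0.074 to 0.064, Eda2r from -0.051 to 0.010, Ptp4a3 from -0.0038 to 0.084, Ddb2 from -0.013 to 0.032, Sulf2 from -0.022 to 0.023, Trp53 from -0.011 to 0.040 and Fdxr from -0.0068 to 0.086. The cause of these changes was not tested. A library left out leaves a lone sample that is assumed to vary like the others.

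The replicate numbers are not stated to mark a shared culture, and deviations of same-numbered libraries correlated at 0.0078 to 0.057. With the replicate number as a block, 33 members rose and 2 fell with TAMo against vehicle and against TAN, and 4 rose and 2 fell with TAN, where Polk missed the threshold (adjusted p = 0.0539). With 1 mismatch allowed outside the core of the half-site, 19 of 28 genes held one, as did 42.8% of all genes. The depth limits Gdf15 and members under 1 FPKM outside TAMo libraries.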
